A study of Mus musculus with 12 samples.

Results

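The genes described here encode the protein components of the cytosolic ribosome (RP genes), followed by ribosome profiling in the brain and spinal cord of mouse embryos. They were taken as a named list of 58 Rpl, Rplp, Rps and Rpsa genes, and 55 of the 58 were among the 10481 genes of the deposited table. Of these 55, 31 belong to the large and 24 to the small ribosomal subunit. Rpl17, Rpl30 and Rps2 were not analysed here. The embryos came from the Taiwanese mouse model of spinal muscular atrophy (SMA, strain 005058) at embryonic day 14.5. Control embryos were Smn+/-; SMN2tg/0 and SMA embryos were Smn-/-; SMN2tg/0, so that controls lacked a copy of Smn as well and all animals carried the human SMN2 transgene. There were 3 libraries in each of the 4 groups (control brain, SMA brain, control spinal cord and SMA spinal cord), 12 in all, from whole tissue. The values are counts of ribosome-protected fragments per gene, and no RNA-seq was used here, so that more mRNA and more ribosomes per mRNA cannot be told apart. In whole tissue, fewer cells of a type and less RNA per cell cannot be told apart either.

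Each ribosome holds a large subunit, which forms peptide bonds, and a small subunit, which reads the codons. Nearly every RP is needed in equal number in each particle, and RP mRNAs are among the most translated in growing tissue. Their transcripts belong to the terminal oligopyrimidine (TOP) class: they begin with a run of C and U, through which growth signals acting by mTOR and the LARP proteins control their loading onto ribosomes. In neural tissue, progenitors that divide carry a high demand for new ribosomes.

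The stretch of C and T around the gene start was read from RefSeq promoters (GRCm38.p6), which covered 43 of the 55 genes with 50 entries. In the 60 bases centred on the annotated start, an unbroken run of at least 8 C or T on the strand of the gene stood in 24 of 50 RP entries (48.0%) and in 22.9% of all 32851 entries. No start site was measured in these samples, and the annotated start can lie some bases from the one in use. The sequences below are 30 bases long, 5′ to 3′ on the strand of the gene, taken from within these 60 bases, with the longest run of C and T in capitals. The capitals need not be the first bases of the mRNA. Relative to the annotated start, the runs of Rps25 and Rpl10 begin at position -22 and that of Rps4x at position 11. The first 5 are genes with large differences between SMA and control spinal cord, Rps6 and Rps4x had some of the clearest differences between tissues, and Rpl10 went against the other RP genes. Rps4x and Rpl10 are shown for their short runs, of 4 bases.
Rpl7a, chr2:26910788-26910817, plus strand: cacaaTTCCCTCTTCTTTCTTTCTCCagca
Rpl27a, chr7:109519186-109519215, plus strand: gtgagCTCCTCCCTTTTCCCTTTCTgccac
Rpl13a, chr7:45128722-45128751, minus strand: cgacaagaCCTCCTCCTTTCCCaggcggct
Rplp2, chr7:141447636-141447665, plus strand: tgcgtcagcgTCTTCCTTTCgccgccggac
Rps25, chr9:44407684-44407713, plus strand: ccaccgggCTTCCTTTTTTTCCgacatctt
Rps6, chr4:86857349-86857378, minus strand: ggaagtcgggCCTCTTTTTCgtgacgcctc
Rps4x, chrX:102189365-102189394, minus strand: ggagcaacccaggCTCCagcgcgcgcgcag
Rpl10, chrX:74270786-74270815, plus strand: ggctgtaaCTCTatggttgttacagtggaa

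Library totals ran from 3683842 to 12793955 counts. Brain libraries held 3683842 to 9117017 counts, control spinal cord 10315064 to 12793955 and SMA spinal cord 5162190 to 8027322, so that depth and genotype cannot be told apart in spinal cord. Of the region markers, 8 of 8 Hox genes were higher in spinal cord at an adjusted p below 0.05 from edgeR in both genotypes. Control spinal cord library 1 stood apart from its group. Its level of Otx2, a gene of the anterior brain, was 41.1 CPM (counts scaled to the normalised library total) against 3.001 and 0.948 in the other controls and 87.4 to 133.9 in brain. In SMA spinal cord Otx2 stood at 8.39, 1.94 and 7.37 CPM. On 4 liver and yolk sac genes, SMA spinal cord library 1 held 1072 CPM, against 6.41 and 15.38 CPM in the others of its group. Control spinal cord library 3 held 353.1 CPM on these genes, against 28.61 and 3.001 CPM in libraries 1 and 2, and SMA brain library 1 held 38.55 CPM, against 0.488 to 2.41 CPM in the other brain libraries. Smn1 itself was not analysed here, and genotypes were taken from the labels.

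The 55 RP genes took between 0.978% and 1.62% of all counts. In control brain the share was 1.243%, 1.553% and 1.548% in the 3 libraries, and in SMA brain 1.621%, 1.507% and 1.542%. In control spinal cord it was 0.978%, 1.07% and 1.111%, and in SMA spinal cord 1.091%, 1.374% and 1.189%. Every spinal cord library except SMA library 2 lay below every brain library, and the SMA and control ranges overlapped in both tissues. The share tended to be lower in deeper libraries of a tissue, though not at every step: control spinal cord library 3 at 1.111% lay above the shallower SMA library 1 at 1.091%, and control brain library 2 above SMA brain library 3. Control brain library 1, the deepest of the brain, was 2.475 times as deep as SMA brain library 3 and held only 1.994 times its RP counts. Control spinal cord library 1 was 2.478 times as deep as SMA spinal cord library 2 and held 1.764 times its RP counts. Against the brain library nearest to it in total counts, each spinal cord library had the lower share, the brain share being higher by a factor of 1.097 to 1.271. The nearest was control brain library 1 for all control libraries and SMA library 1, and SMA brain library 2 for SMA libraries 2 and 3. These comparisons thus share 2 brain libraries, and every control spinal cord library was deeper than every brain library. Depth was therefore not matched for them.

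**Figure D1:**
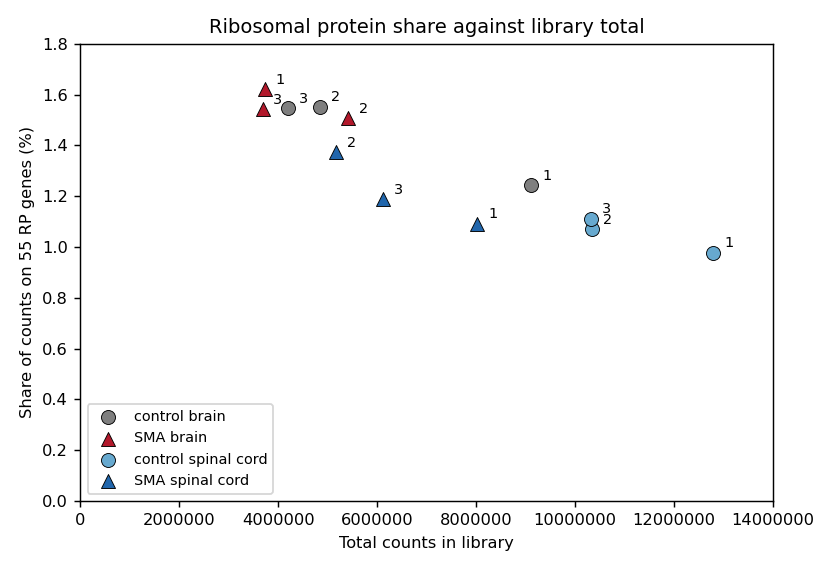
Share of all counts on the 55 RP genes (%) against the total counts of each library, 1 point per library with its replicate number, circles for control and triangles for SMA. The share falls from 1.62% in SMA brain library 1 to 0.978% in the deepest spinal cord library, and spinal cord libraries lie below the brain libraries nearest to them in depth. The control spinal cord libraries are deeper than every brain library.

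The large subunit held more of these counts than the small one in every library, by a factor between 1.44 and 1.504. These are sums over 31 large and 24 small subunit genes, so that the factor is not one per gene. This proportion varied little between tissues and genotypes.

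Per base, the RP genes were among the most densely read genes. The median RP gene had 0.655 counts per base of gene length, averaged over the 12 libraries, against 0.110 for the median of all genes, and 34 of the 55 lay above the 90th percentile. Lengths in the table join the exons of all isoforms, from 499 bases for Rplp1 to 6270 for Rps15a, and the order of genes depends on them. As normalised CPM per kb, Rpl13a led with 542.3 ± 91.6 (SD, n = 3) for control and 581.1 ± 41.7 for SMA brain. Its spinal cord values were 361.5 ± 19.2 for control and 462.4 ± 57.3 for SMA embryos. Rpl13a is a large subunit protein also known for a role outside the ribosome, in silencing of inflammatory transcripts. Rpl24, at the interface of the subunits, had 533.2 ± 79.4 CPM per kb in control brain, which did not differ from Rpl13a beyond the spread. Rpl10a, Rpl38 and Rps9 came next, at 402.5 ± 66.9, 390.9 ± 68.7 and 335.0 ± 58.3. Of 54 neighbouring pairs in the control brain order, the gap exceeded the pooled SD in 7.

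At the low end, Rpl10, the X-linked protein that joins the large subunit in one of its last assembly steps, had 6.35 ± 1.45 CPM per kb in control brain. Rpl9, the next lowest, had 30.43 ± 3.61. Rps15a, Rpl13 and Rpl15, the next lowest in counts per base over the 12 libraries, lay at 35.38 ± 3.39, 35.56 ± 4.84 and 36.51 ± 4.97. All were within the spread of one another, and in control brain Rps20 lay below them at 34.28 ± 3.69. RP genes have many near-identical processed pseudogenes, and the authors kept reads with up to 5 alignments, so that these levels, that of Rpl10 among them, are uncertain. Rpl13a, Rpl24, Rpl9 and Rpl10 kept their places at the top or the bottom in all 4 groups. Among genes with a place of their own, the stalk proteins, which recruit translation factors, stood at 152.9 ± 10.7 (Rplp0), 117.6 ± 10.8 (Rplp1) and 222.9 ± 42.8 (Rplp2) CPM per kb in control brain.

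**Figure D2:**
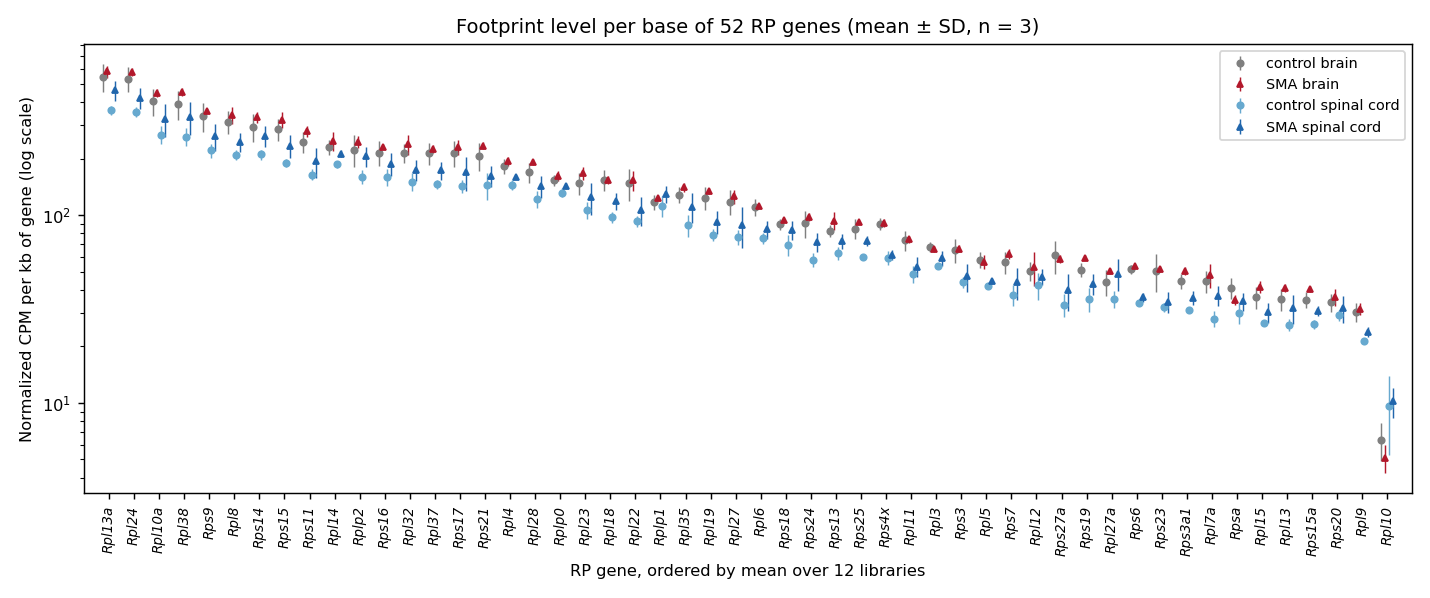
Normalised CPM per kb of gene length (log axis) of 52 RP genes, ordered by their mean over 12 libraries, with the mean and SD of the 3 libraries of each group. Levels span from Rpl13a at the top to Rpl10 at the bottom, brain lies above spinal cord for nearly all genes, and Rpl10 is the reverse.

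Between tissues, the RP genes were lower in spinal cord than in brain. Of the 55, 54 were lower in control spinal cord than in control brain, with a median log2 fold change of -0.52 against 0.01 over all genes. By the quasi-likelihood test of edgeR with Benjamini-Hochberg adjustment over all genes, 49 were lower at an adjusted p below 0.05, where 18.1% of all genes were lower, and 0 higher, where 20.4% of all genes were higher. At an unadjusted p below 0.05, 49 were lower, against 23.4% of all genes. The groups did not overlap, all spinal cord libraries being lower, for 48 genes, against 26.2% of all genes. The large subunit genes had a median of -0.50 and the small subunit genes one of -0.52.

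Rps6 (ENSMUSG00000028495), the small subunit protein phosphorylated by S6 kinase, had 75.6, 84.4 and 85.7 CPM in control brain and 53.9, 54.5 and 55.7 CPM in control spinal cord. The 3 spinal cord libraries lay close together, all below the brain (log2 fold change -0.58 ± 0.10 SE, adjusted p = 0.00307 by edgeR). Rps27a, made as a fusion with ubiquitin, fell the most, from 91.6, 136.5 and 134.1 CPM to 58.3, 76.6 and 63.9 CPM (-0.86 ± 0.17, adjusted p = 0.0069 by edgeR). Control brain library 1 was the lowest of the brain for both genes. Rps4x (ENSMUSG00000031320), the X-linked form of a small subunit protein, had 138.7, 141.8 and 161.8 CPM in control brain against 94.6, 90.9 and 107.0 CPM in control spinal cord. Its difference was -0.60 ± 0.11 (adjusted p = 0.00415 by edgeR). Rpl18, Rpl6, Rpl7a, Rpl8 and Rps15 completed the 8 genes with the smallest p, at log2 fold changes between -0.65 and -0.54.

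Rpl5 and Rpl11, which with the 5S rRNA bind Mdm2 and tie ribosome assembly to p53, both passed. Rpl5 fell by 27.0% (adjusted p = 0.00939 by edgeR) and Rpl11 fell by 33.1% (adjusted p = 0.00899). Rpl22, a large subunit protein with a paralog in Rpl22l1, fell by 36.8%. Rpl38, known for its part in the translation of Hox mRNAs, had 167.0, 235.1 and 236.6 CPM in control brain and 126.9, 144.3 and 158.6 CPM in control spinal cord (-0.57 ± 0.15, adjusted p = 0.0203 by edgeR). Its ranges did not meet. Rplp1 differed least, at 51.9, 61.9 and 63.0 CPM in control brain against 48.7, 58.7 and 62.3 CPM (-0.06 ± 0.13, adjusted p = 0.761 by edgeR). Rplp0, at -0.21 ± 0.09, did not pass either (adjusted p = 0.11 by edgeR). Rplp2, the partner of Rplp1 in the stalk, was among the 49.

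In SMA embryos, a comparison that shares no library with the one in controls, 53 of the 55 genes were lower in spinal cord, with a median log2 fold change of -0.40 against 0.03 over all genes. By edgeR, 39 were lower at an adjusted p below 0.05, where 17.2% of all genes were lower, and 1 was higher, where 19.5% of all genes were higher. All 39 were also among the 49 genes lower in controls, of which they made up 79.6%. Rps6 had 84.1, 84.0 and 84.8 CPM in SMA brain and 58.8, 59.8 and 54.3 CPM in SMA spinal cord (-0.55 ± 0.09, adjusted p = 0.00219 by edgeR). Rps4x fell by 31.7% (-0.55 ± 0.09, adjusted p = 0.0025) and Rps23, which lines the decoding centre, by 33.2% (-0.58 ± 0.11, adjusted p = 0.00542). Rps21, Rpl19, Rps24 and Rps15a followed, at -0.54 to -0.37.

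Rpl10 was the gene that rose. It had 8.14, 9.56 and 11.3 CPM in SMA brain and 23.6, 16.2 and 18.7 CPM in SMA spinal cord, without overlap (1.01 ± 0.21, adjusted p = 0.00711 by edgeR). In controls it had 10.3, 10.8 and 15.6 CPM in brain against 28.3, 14.4 and 13.2 CPM in spinal cord, where library 1 alone stood clear of the brain values (0.63 ± 0.32, adjusted p = 0.149 by edgeR). The genes Rpsa and Rpl27a had small differences in SMA embryos, -0.01 ± 0.11 and -0.04 ± 0.14, against -0.44 ± 0.14 and -0.29 ± 0.14 in controls.

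**Figure D3:**
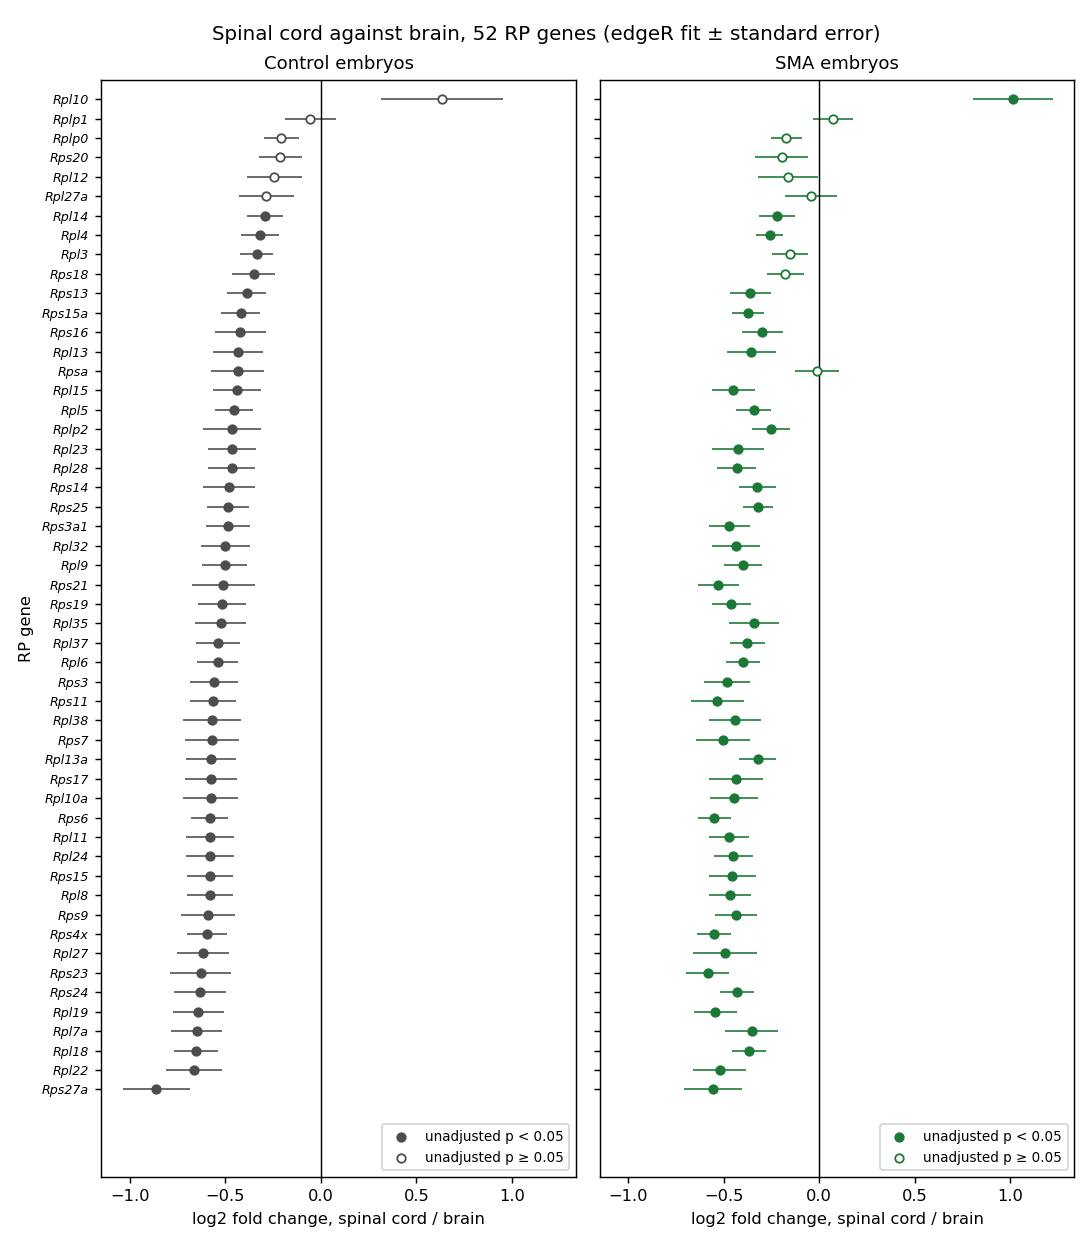
Log2 fold change of spinal cord over brain for 52 RP genes in control (left) and SMA (right) embryos, with standard errors; filled points had an unadjusted p below 0.05 by edgeR. In controls 51 of these lie left of 0, in SMA embryos 50, and Rpl10 lies to the right in both.

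Depth moved with these values, since the spinal cord libraries were on the whole deeper. With the log2 library total as a covariate over all 12 libraries, a fit chosen after the data were seen, the median was -0.18 in controls and -0.20 in SMA embryos. In that fit 3 RP genes passed an adjusted p below 0.05 in controls, where 1692 of all 10481 genes did, Rpl18 (-0.32), Rps4x (-0.47) and Rps6 (-0.50), and these 3 were also among the 14 that passed in SMA embryos, where 3114 of all genes did. After removal of each library's drift with read density, in counts per base, which by construction takes out part of any shift shared by densely read genes, the medians were -0.21 and -0.20 and 25 RP genes passed in each genotype, 2 of those in SMA embryos being higher in spinal cord, against 4046 and 3937 of all genes. Markers of dividing cells moved the same way. All 6 of those followed were lower in spinal cord in both genotypes, with a summed level of 578.4 to 698.9 CPM in brain and 132.8 to 442.1 CPM in spinal cord, the highest of the latter in control library 1. Their part in the difference of the RP genes was not tested. Without control spinal cord library 1, 40 RP genes passed in controls, where 3848 of all genes did, and the median was -0.49. Without control brain library 3, 23 passed, against 2596 of all genes. Without SMA brain library 1, 17 passed in SMA embryos, against 2628 of all genes.

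Between SMA and control brain, differences of the RP genes were small. Of the 55, 50 were higher in SMA, the median log2 fold change was 0.12 against 0.00 over all genes, and 1 gene passed an unadjusted p below 0.05, where 1.77% of all genes were higher. None was lower, where 3.28% of all genes were. The gene was Rps19 (ENSMUSG00000040952), a small subunit protein mutated in Diamond-Blackfan anaemia. It had 208.1, 251.4 and 247.0 CPM in control brain and 274.6, 268.2 and 283.0 CPM in SMA brain. The groups did not overlap, and control library 1 was the lowest value (0.23 ± 0.10, unadjusted p = 0.033, adjusted p = 0.902 by edgeR). No RP gene passed an adjusted p below 0.05 by edgeR or DESeq2. For 7 genes all SMA libraries were higher, against 4.82% of all genes, and for 0 genes all were lower, against 6.22%.

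Rpl38 had the highest log2 fold change in brain. It stood at 163.3, 229.8 and 230.7 CPM in control against 252.3, 229.8 and 249.9 CPM in SMA (0.24 ± 0.13, adjusted p = 0.902 by edgeR), and SMA library 2 lay within the control range. Rps19 came next, and Rpl13 followed at 0.23 ± 0.12. At the other end, Rpl10 had 10.1, 10.6 and 15.2 CPM in control and 8.16, 9.55 and 11.3 CPM in SMA, overlapping (-0.28 ± 0.22, adjusted p = 0.903 by edgeR). Rpsa, which is also known as a laminin receptor, had 102.9, 126.8 and 134.8 CPM in control and 107.7, 110.6 and 97.5 CPM in SMA (-0.20 ± 0.12, adjusted p = 0.902 by edgeR). Rps27a, at -0.04 ± 0.14, was next from the bottom.

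The genes with a place of their own did not pass in brain. Log2 fold changes were 0.08 ± 0.10 for Rps6, -0.01 ± 0.11 for Rpl5, 0.04 ± 0.11 for Rpl11 and 0.07 ± 0.14 for Rpl22. The stalk genes Rplp0, Rplp1 and Rplp2 were at 0.10 ± 0.10, 0.10 ± 0.12 and 0.16 ± 0.13, and Rps25, needed by some viral and cellular internal ribosome entry sites, at 0.13 ± 0.10. Rps4x was at 0.03 ± 0.10. Control brain library 1, with 9117017 counts the deepest of the brain, was the lowest of its group for most of the genes named here. Without it the median over the 55 genes was 0.01, and with the library total as a covariate it was -0.04. The dividing-cell markers, all 6 lower in SMA brain, of which 0 passed an unadjusted p below 0.05 by edgeR, summed to 608.9 to 698.9 CPM in control and 578.4 to 639.8 CPM in SMA. Nes, a gene of neural progenitors, was at -0.33 (unadjusted p = 0.00934, adjusted p = 0.902 by edgeR) and Col1a1, of fibroblasts and meninges, at -0.95 (unadjusted p = 0.0186, adjusted p = 0.902 by edgeR). Of 5 neuron markers, 4 were higher in SMA brain and 1 lower, with a median of 0.13, and 0 passed an unadjusted p below 0.05 by edgeR. SMA brain library 1, with the most counts on liver and yolk sac genes in brain (38.55 CPM), also had the highest RP share. Spinal cord libraries went both ways. SMA library 1, at 1072 CPM on these genes, had the lowest RP share of its group (1.091%). Control library 3, at 353.1 CPM, had the highest of its group (1.111%). The part of these in the difference of the RP genes was not tested. All these markers could be followed only where a list that the paper describes as its dysregulated genes named them.

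Between SMA and control spinal cord, all 55 RP genes were higher in SMA. The median log2 fold change was 0.21 against -0.01 over all genes. The quartiles were 0.15 and 0.27 and the medians of the large and small subunit 0.21 and 0.22. At an unadjusted p below 0.05, 14 were higher and 0 lower, where 3.73% of all genes were higher and 3.26% lower. By edgeR, 0 passed an adjusted p below 0.05, the smallest being 0.684. By DESeq2, 4 passed: Rpl13a, Rplp2, Rps14 and Rps25, with adjusted p of 0.028, 0.0467, 0.0496 and 0.0395, among 84 of all genes. DESeq2 gave no adjusted p for 27 of the 55, Rpl27a and Rpl7a among them. For 18 genes all SMA libraries lay above all controls, against 7.52% of all genes. Beyond a log2 fold change of 0.3 with an unadjusted p below 0.05, there were 7 genes, against 2.05% of all genes.

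Rpl27a, of the large subunit, had 88.1, 93.5 and 107.0 CPM in control and 118.7, 159.7 and 112.6 CPM in SMA. The groups lay apart by a narrow margin, with SMA library 2 well above the rest (0.44 ± 0.15, unadjusted p = 0.0233). Rpl7a had 43.9, 44.5 and 51.9 CPM in control and 59.4, 70.1 and 55.4 CPM in SMA, again without overlap (0.40 ± 0.12, unadjusted p = 0.0137). Rpl13a (ENSMUSG00000074129), the most densely read of the RP genes, rose by 26.8% at the unadjusted threshold. It had 477.5, 507.6 and 524.6 CPM in control and 559.3, 718.0 and 638.0 CPM in SMA (0.34 ± 0.10, unadjusted p = 0.00988). Rplp2 and Rps14 were at 0.34 ± 0.11 and 0.32 ± 0.10. In each of these genes SMA library 2, the shallowest of the spinal cord, had the highest value.

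Rps25 had the tightest controls, at 163.5, 163.7 and 165.1 CPM, against 187.1, 212.9 and 195.0 CPM in SMA (0.27 ± 0.08, unadjusted p = 0.0107). All 3 SMA libraries stood well above the control range. Other genes at an unadjusted p below 0.05 were Rpl14, Rpl18, Rpl37, Rps15, Rps15a and Rps24, at 0.18 to 0.30. At the low end stood Rps4x with 95.9, 91.6 and 107.2 CPM in control and 100.1, 108.5 and 95.7 CPM in SMA (0.05 ± 0.09, adjusted p = 0.889 by edgeR), which overlapped throughout. Rpl10 was at 0.07 ± 0.32, its control library 1 holding 28.7 CPM and the other controls 14.5 and 13.3 CPM. Rpl5 was at 0.07 ± 0.07. The partner of Rpl5, Rpl11, was at 0.12 ± 0.12, Rps6 at 0.08 ± 0.08, Rps19 at 0.26 ± 0.14 and Rpl38 at 0.34 ± 0.16, and none of these passed. Rplp0 and Rplp1 were at 0.11 ± 0.08 and 0.20 ± 0.12, Rpl22 at 0.18 ± 0.13, Rps27a at 0.24 ± 0.18 and Rpsa at 0.20 ± 0.13, likewise without passing.

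**Figure D4:**
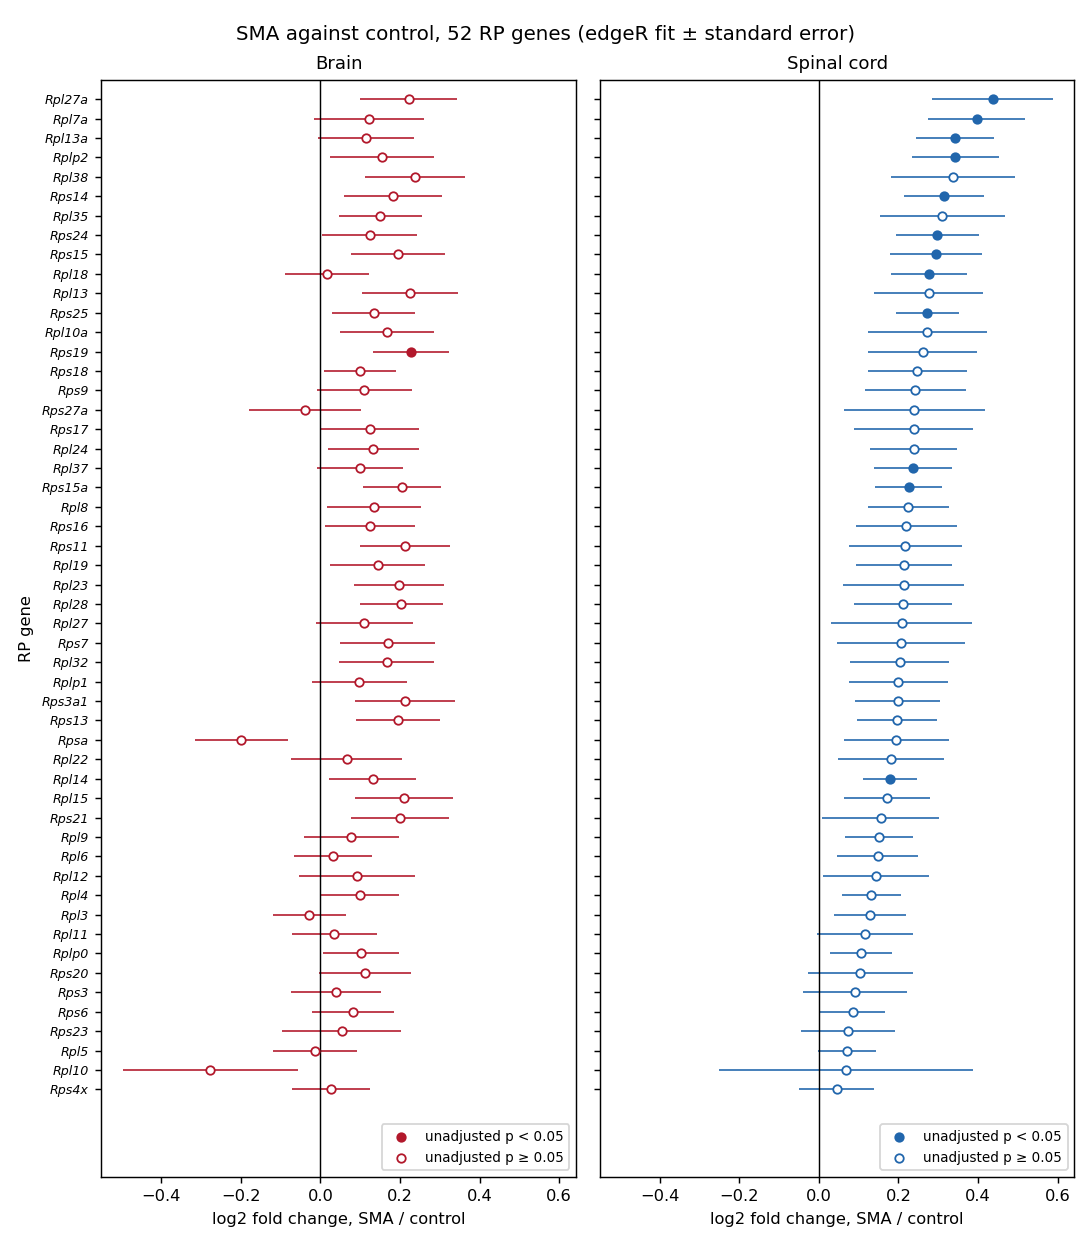
Log2 fold change of SMA over control for 52 RP genes in brain (left) and spinal cord (right), with standard errors and ordered by the spinal cord value; filled points had an unadjusted p below 0.05 by edgeR. All 52 points lie right of 0 in spinal cord with 12 filled, against 47 points and 1 filled in brain.

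All SMA spinal cord libraries were shallower than all control ones, and the difference of the RP genes moved with depth and with single libraries. With the library total as a covariate the median was -0.03. In that fit 0 genes passed an unadjusted p below 0.05 by edgeR, where 4.43% of all genes did. After removal of the drift with read density the median was 0.07 and 6 genes passed, where 5.84% of all genes did. Among the 6 were Rpl27a, Rpl7a, Rps15a, Rps24 and Rps25, at 0.38, 0.37, 0.21, 0.20 and 0.17. Before that removal, log2 fold change rose with counts per base over 9781 genes with enough counts (Spearman correlation 0.38). Among the RP genes the correlation was 0.34. In brain the 2 correlations were 0.26 and 0.26. Without SMA spinal cord library 2 the median was 0.12 and 4 genes passed, where 4.04% of all genes did. Without SMA library 1, the one with most counts on liver and yolk sac genes, they were 0.30 and 29, where 11.6% of all genes passed, and without control library 1 they were 0.18 and 6, where 3.73% did. The dividing-cell markers, all 6 lower in SMA, of which 0 passed an unadjusted p below 0.05 by edgeR, summed to 442.1, 174.3 and 186.7 CPM in control and 195.6, 132.8 and 168.6 CPM in SMA. Nes was at -0.41 (unadjusted p = 0.00662, adjusted p = 0.684 by edgeR), and 0 of 6 erythroid markers could be followed. Of 5 neuron markers, 4 were higher in SMA and 1 lower, with a median of 0.17. At an unadjusted p below 0.05 by edgeR, 0 of them passed. The part of these in the difference was not tested. As in brain, which markers could be followed depended on a list drawn from these same data.

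**Figure D5:**
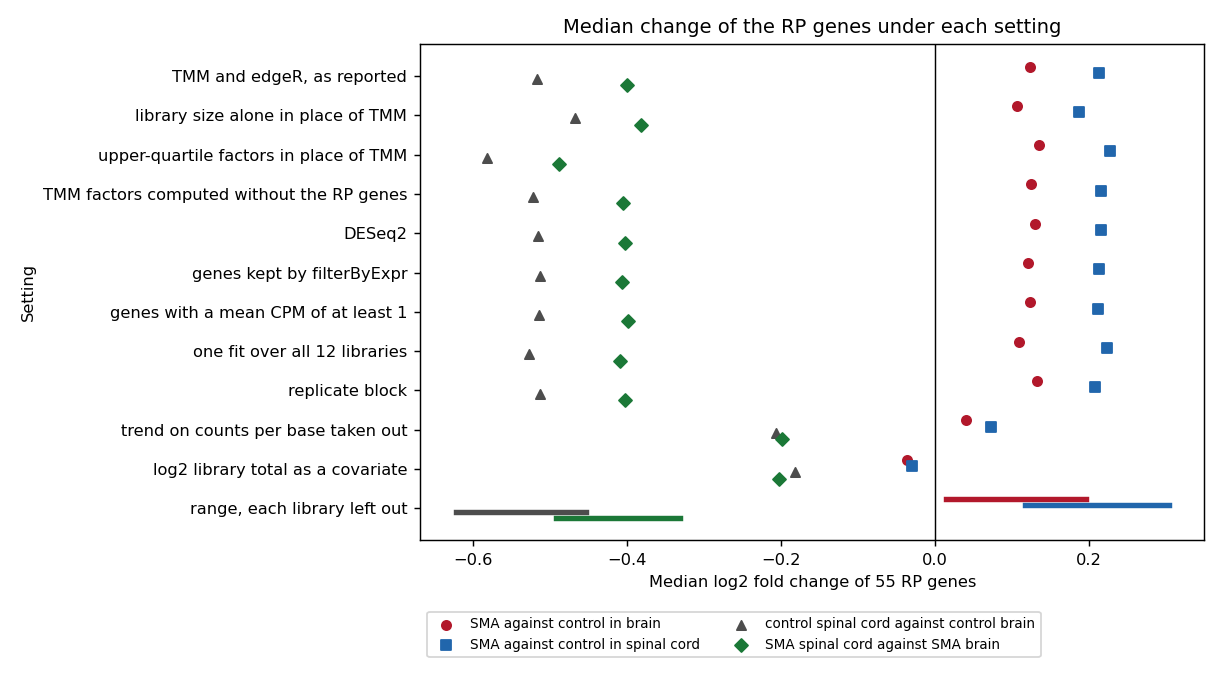
Median log2 fold change of the 55 RP genes in the 4 comparisons under each setting, with bars for the range over fits that leave out 1 library. The 4 medians hold their sign and rough size except with the trend on read density removed and with the library total as a covariate, where both SMA medians fall to 0.07 and below and both tissue medians lie between -0.21 and -0.18, and the brain SMA median reaches 0.01 without 1 library.

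Whether the SMA difference itself differed between tissues was tested as an interaction over the 12 libraries. The median over the 55 genes was 0.12 towards spinal cord, against 0.03 over all genes, and 51 genes had the larger log2 fold change in spinal cord. At an unadjusted p below 0.05 by edgeR, 2 genes passed, where 1.44% of all genes did in that direction and 0.935% in the other. 1 of them was Rpsa (0.42 ± 0.18, unadjusted p = 0.0386, adjusted p = 1 by edgeR). In SMA over control, the level of Rpsa differed by -12.8% in brain and 14.5% in spinal cord, neither of which passed. The median was -0.01 without SMA spinal cord library 2 and -0.02 with the library total as a covariate.

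The 23 RP genes with a C/T run of at least 8 near their start and the 20 with a shorter one had like values. Their median log2 fold changes were 0.13 and 0.10 in brain and 0.25 and 0.19 in spinal cord for SMA over control. For spinal cord over brain they were -0.52 and -0.51 in controls and -0.37 and -0.44 in SMA embryos. These are descriptions, since genes of the same libraries are no replicates.

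Other genes of translation, of those that could be followed, did not all share the pattern. Rack1, a scaffold bound to the small subunit, and Btf3, part of the complex that meets nascent chains, were the 2 of 7 ribosome-bound or TOP mRNA proteins that could be followed. Both were lower in spinal cord at an adjusted p below 0.05 by edgeR, Rack1 at -0.38 in controls and -0.28 in SMA and Btf3 at -0.47 and -0.45. Of 13 initiation and elongation factors followed, 8 were lower and 5 higher in control spinal cord, with a median of -0.04, and 1 passed in each direction, Eif3d at -0.29 and Eef1a2, the elongation factor form of neurons and muscle, at 0.82. Of 22 ribosome biogenesis factors, 19 were lower in control spinal cord with a median of -0.15, of which 2 passed, Emg1 at -0.65 and Ddx27 at -0.40. In SMA against control they leaned the other way from the RP genes, 16 lower in brain and 19 in spinal cord with medians of -0.10 and -0.13, and 0 passed an adjusted p below 0.05. At an unadjusted p below 0.05 by edgeR, 1 of them passed, Lsg1 in brain (-0.28), which acts late in large subunit maturation. These factors could be followed only where a list that the paper describes as its dysregulated genes named them. Among its dysregulated genes the paper reports more with lower than with higher occupancy in SMA. The direction of the factors was thus not independent of that list. The 17 mitochondrial ribosomal protein genes had medians of -0.03 and -0.04 for SMA over control in brain and spinal cord and -0.12 for control spinal cord over brain, where 2 passed, Mrpl58 at -0.54 and Mrpl13 at -0.48.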

How the data were processed

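Ribosome-protected fragments of 28 to 32 nucleotides from 80S monosomes were sequenced by the authors in 12 libraries. Per the methods and the submitters' processing notes, adapters were cut (cutadapt 4.1), rRNA and tRNA reads removed and the rest aligned with STAR 2.5.3a to GRCm38.p6, keeping up to 5 alignments per read. The alignment section of the methods says that duplicate reads sharing a transcript position were discarded. Whether the deposited counts were made after that step, the counting tool and its treatment of reads with several alignments are not given in the sources used here. The deposited values are raw counts per gene for genes past the authors' filter on low values, without normalization.

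The RP genes and all lists were chosen with earlier results of these data known. Genes named with values were those past a log2 fold change of 0.3 with p below 0.05 (at most 8 in each direction), the 3 highest and 3 lowest in each SMA comparison, the 5 most and 5 least densely read, and genes with a known special place; others are named where a count is 5 or fewer or to complete a count. Identifiers of the RP genes came with their list. Names of other genes came from the identifier and name columns of a supplementary data set of the study, covering 1999 of the 10481 genes. The paper describes that data set as its dysregulated genes from ribosome profiling. Which markers and other genes of translation could be followed thus depended on a list drawn from these same data. Counts were tested in edgeR 4.0.16 (R 4.3.3) with TMM factors, glmQLFit and glmQLFTest on all 10481 genes, separately for each pair of groups and over all 12 libraries for the interaction, with Benjamini-Hochberg adjustment over all genes; all tests were 2-sided. No gene was dropped from the tests; some RP genes and 1 marker enter the counts and medians but are not reported here by name, and 3 RP genes are left out of the plots by gene. Scripts were tested on simulated data. CPM within a comparison uses that comparison's TMM factors and CPM per kb those over 12 libraries, so values of a library differ slightly between comparisons. DESeq2 1.42.0, other scalings, filters, a replicate term, the removal of each library's lowess trend on counts per base, the library total as a covariate and the removal of each library were alternatives. Replicates differed by more than counting noise, and each library counted once. A legend of the study counts embryos, and neither the methods nor the labels say whether each library of a group came from a separate one; p-values measure the spread between libraries.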

Additional observations from a re-analysis of the deposited data

How the results depend on the processing

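Depth and single libraries limit these results: the share of counts on RP genes tended to be lower at higher library totals, and the totals did not overlap between genotypes in spinal cord. The median log2 fold changes kept their direction and stayed within 1 replicate SD (0.111) of the reported value with library size alone, upper-quartile factors, TMM without the RP genes, DESeq2, both filters on low counts, 1 fit over 12 libraries and the replicate block. Coding lengths from RefSeq proteins were not run.

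The replicate numbers were not taken to pair libraries. Over all comparisons, same-numbered libraries deviated together with r from -0.33 to 0.68, both ends from SMA against control spinal cord. For spinal cord against brain, r was 0.13, 0.04 and 0.15 in controls and 0.32, 0.10 and 0.12 in SMA embryos. The sources used here do not say whether brain and spinal cord libraries came from the same embryos, and the main fits took them as separate. In those comparisons 47 and 36 RP genes were lower at an adjusted p below 0.05 by edgeR with the replicate block, against 4489 and 3745 of all genes passing. With the replicate block, 23 RP genes in place of 14 had p below 0.05 for SMA over control in spinal cord, while all genes at that threshold went from 733 to 1438, and the cause was not tested; not every library correlated best with its own number. By DESeq2, 4 in place of 0 passed the adjusted p in that comparison, and 84 in place of 0 of all genes.

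After removal of the drift with read density, 2 genes had p below 0.05 in brain and 6 in spinal cord (median 0.072) for SMA over control. Of all genes, 5.55% and 5.84% did. For spinal cord over brain 25 passed the adjusted p in controls (median -0.21) and 25 in SMA embryos (median -0.20). Of all genes, 4046 and 3937 did. Reversed under it were Rpl11 (-0.012), Rpl22 (-0.014) and Rps4x (-0.040) in brain, and Rps4x (-0.045) and Rplp0 (-0.076) in spinal cord.

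With the library total as a covariate, 2 genes had p below 0.05 in brain (Rpl18 and Rps27a, lower in SMA) and 0 in spinal cord by edgeR, with medians of -0.037 and -0.030, both reversed. Of all genes, 5.49% in brain and 4.43% in spinal cord had p below 0.05. For spinal cord over brain, 17 genes in controls and 30 in SMA embryos had p below 0.05. Of all genes, 29.9% and 40.3% did. The adjusted p was passed by 3 and 14 RP genes, against 1692 and 3114 of all 10481 genes. The RP medians were -0.18 and -0.20. The interaction had 1 gene, where 2.67% of all genes passed, and a median of -0.019. With library size alone it also had 1 gene, where 2.19% of all genes passed. Single genes reversed in brain were Rpl11 (-0.12), Rpl22 (-0.15), Rplp1 (-0.045), Rplp2 (-0.057) and Rps4x (-0.056). In spinal cord they were Rps14 (-0.030), Rplp2 (-0.042), Rps4x (-0.061), Rpl5 (-0.075), Rpl11 (-0.14), Rpl22 (-0.22), Rpl38 (-0.057), Rplp1 (-0.021) and Rps27a (-0.21). The cause of these reversals was not tested.

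Leaving out each library in turn gave 0 to 10 genes at p below 0.05 for SMA over control in brain, where 4.29% to 5.84% of all genes did, and 4 to 29 in spinal cord, where 3.73% to 11.6% did. The adjusted p was passed by 23 to 50 genes in the control tissue comparison and 17 to 45 in the SMA one. Over all genes the counts also moved, from 2550 to 3848 and from 2628 to 4092. The interaction ranged from 0 to 7 genes at p below 0.05, where 1.81% to 4.04% of all genes passed. Its median ranged from -0.010 to 0.22. In brain the range was -0.10 to 0.039 for Rpl5, -0.21 to 0.062 for Rps27a, -0.017 to 0.094 for Rps4x, -0.075 to 0.092 for Rpl11, -0.094 to 0.18 for Rpl22 and -0.0078 to 0.25 for Rplp2. In spinal cord it was -0.13 to 0.51 for Rpl10 and -0.0053 to 0.11 for Rps4x. The lowest brain values came without control library 1.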
